A study of Mus musculus with 8 samples.

Results

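H3K36me3 peaks were examined over short multi-exon gene bodies, defined as protein-coding genes of mouse chromosomes 1 to 19 whose longest protein-coding transcript (the one with the most exon bases) had at least 4 exons and spanned under 5000 bases from start to end (GENCODE M21, mm10). The rule used annotation only and no measured value. It gave 1273 of 15543 gene bodies (8.19%), between 552 and 4998 bases long with a median of 3632. The comparison genes were the 2240 gene bodies of 5 to 10 kb, the 3297 of 10 to 20 kb and all 14270 of 5 kb or more. The study put the histone mark through ChIP–seq in mouse embryonic fibroblasts (MEFs) from E13.5 embryos, and each of its 4 conditions had 1 H3K36me3 library and 1 input library of unprecipitated chromatin. All cells were i4F MEFs of the culture labelled Clone 1, which carry a doxycycline-inducible cassette for the reprogramming factors Oct4, Sox2, Klf4 and c-Myc (OSKM), and all were collected 72 h after transfer to iPSC medium. The MEF condition received neither compound, MEF B12 received 2 µM vitamin B12, OSKM received doxycycline (1 µg/ml in the labels, although the methods write mg/ml), and OSKM B12 received both. With 1 library per condition no difference between conditions has a replicate check and no test across genes was made, so the intervals given are 95% intervals of counting error only. The cassette is shared by all 4 conditions, and the cells come from 1 clone, so the values describe these cultures.

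H3K36me3 is trimethylation of lysine 36 of histone H3. In mammals SETD2 writes it, travelling with elongating RNA polymerase II, so the mark is laid down over transcribed gene bodies, is scarce at promoters and accumulates towards the 3′ end. It recruits DNA methyltransferases and helps to keep start sites inside genes silent, and SETD2 draws its methyl groups from S-adenosylmethionine, which the vitamin B12-dependent methionine cycle supplies. Short genes leave the polymerase little distance between start and end, and they include many strongly transcribed housekeeping genes (ribosomal proteins, actin, tubulins) as well as families that fibroblasts do not use (kallikreins, lipocalins, keratins).

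A feature that separated marked from unmarked short genes lay in the 250 bases before the transcript start. Those bases are printed here for 5 members, chosen as examples after their values were seen. They come from the RefSeq genome sequence (GRCm38.p6, the mm10 assembly). They are written 5′ to 3′ on the gene's own strand with each CG dinucleotide (CpG) in capitals. Cox5b (a cytochrome c oxidase subunit; chr1:36691234-36691483, plus strand) stands for marked genes, with 22 CpG. Klk1 (a kallikrein protease; chr7:44225110-44225359, plus strand) and Lcn2 (a lipocalin of the innate immune response; chr2:32387798-32388047, minus strand) stand for genes with no peak in any library, with 0 and 2 CpG. The quartiles were 8 and 20 CpG in members with a peak in all 4 libraries and 1 and 6 in those with none. Cox5b and Klk1 lie beyond them, so this pair shows a wider contrast than is typical. The last pair are exceptions: Krt18 (a simple-epithelium keratin; chr15:102027930-102028179, plus strand) had 12 CpG and no peak, and Cd68 (a macrophage lysosomal protein; chr11:69666154-69666403, minus strand) had 4 CpG and a body fully inside a peak in 3 of the 4 libraries.
Cox5b: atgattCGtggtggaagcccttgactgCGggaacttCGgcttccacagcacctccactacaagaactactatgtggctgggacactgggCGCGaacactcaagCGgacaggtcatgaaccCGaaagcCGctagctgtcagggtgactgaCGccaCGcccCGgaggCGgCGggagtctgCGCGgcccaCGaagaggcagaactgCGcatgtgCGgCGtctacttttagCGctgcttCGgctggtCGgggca
Klk1: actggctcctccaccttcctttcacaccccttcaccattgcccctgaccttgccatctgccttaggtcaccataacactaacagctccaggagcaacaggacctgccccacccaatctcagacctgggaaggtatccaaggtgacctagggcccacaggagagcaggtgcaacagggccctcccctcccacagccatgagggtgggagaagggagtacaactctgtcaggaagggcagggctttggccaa
Lcn2: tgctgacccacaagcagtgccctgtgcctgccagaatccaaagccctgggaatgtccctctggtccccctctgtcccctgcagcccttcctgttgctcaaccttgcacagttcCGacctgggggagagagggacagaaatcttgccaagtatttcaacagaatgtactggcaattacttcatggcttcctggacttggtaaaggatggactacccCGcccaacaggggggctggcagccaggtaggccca
Krt18: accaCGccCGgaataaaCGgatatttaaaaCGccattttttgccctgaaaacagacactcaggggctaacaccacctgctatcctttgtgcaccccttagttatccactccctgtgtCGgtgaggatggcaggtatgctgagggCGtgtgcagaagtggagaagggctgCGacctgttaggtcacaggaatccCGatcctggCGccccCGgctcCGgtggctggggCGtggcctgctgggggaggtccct
Cd68: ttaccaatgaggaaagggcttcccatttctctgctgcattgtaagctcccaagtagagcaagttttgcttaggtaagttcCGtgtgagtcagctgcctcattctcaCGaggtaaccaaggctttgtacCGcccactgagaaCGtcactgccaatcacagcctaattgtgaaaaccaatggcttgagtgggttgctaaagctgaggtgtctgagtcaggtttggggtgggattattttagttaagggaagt

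The H3K36me3 libraries held between 29046913 and 33399267 tags after duplicate removal, and the authors called between 64364 and 67234 broad peaks on chromosomes 1 to 19 in each. The peaks covered 150 Mb in MEF, 163 Mb in MEF B12 and in OSKM B12, and 91.8 Mb in OSKM, so the OSKM list had a similar number of peaks but shorter ones. All 9 fibroblast markers examined, among them Col1a1, Vim and Thy1, had a peak in each library, with a median covered share of the body of 71.9% in OSKM and 88.2% to 90.6% in the other libraries. None of the 12 blood, epithelial and liver markers had a peak in any library. The endothelial markers were covered over at most 26.6% and the neural markers over at most 31.7%.

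A smaller share of short genes than of longer genes carried a peak. In MEF 580 of the 1273 members shared at least 1 base with a peak (45.6%, Wilson interval 42.8 to 48.3), against 62.5% of all 15543 gene bodies and 64.0% of those of 5 kb or more. In MEF B12 the count was 599 (47.1%), beside 63.2% of all gene bodies. In OSKM it was 519 (40.8%), beside 59.5%, and in OSKM B12 it was 604 (47.4%), beside 63.6%. In pooled cells, fewer cells with the mark and less mark per cell cannot be told apart. In each library the short genes stood below those of 5 to 10 kb, of which 53.0% (MEF), 54.3% (MEF B12), 50.5% (OSKM) and 54.1% (OSKM B12) had a peak. The share of short genes with a peak divided by that of genes of 5 kb or more was 0.712 (MEF), 0.728 (MEF B12), 0.666 (OSKM) and 0.730 (OSKM B12). A longer body has more bases in which a peak can fall, and against an equal stretch of 3632 bases the order depended on where the stretch lay. In MEF 24.7% of genes of 5 kb or more had a peak in their first 3632 bases, 45.8% in their middle 3632 and 57.7% in their last 3632, and in OSKM the shares were 18.5%, 39.3% and 51.1%. Against this pooled class the short genes held peaks more often than the first stretch, about as often as the middle and less often than the last. Against genes nearer in length they stood below the middle stretch as well. Its MEF share was 49.3% at 5 to 10 kb, 55.3% at 10 to 20 kb and 51.9% at 20 to 50 kb. In OSKM the middle stretch had 45.6%, 50.2% and 44.9% in these classes.

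**Figure D1:**
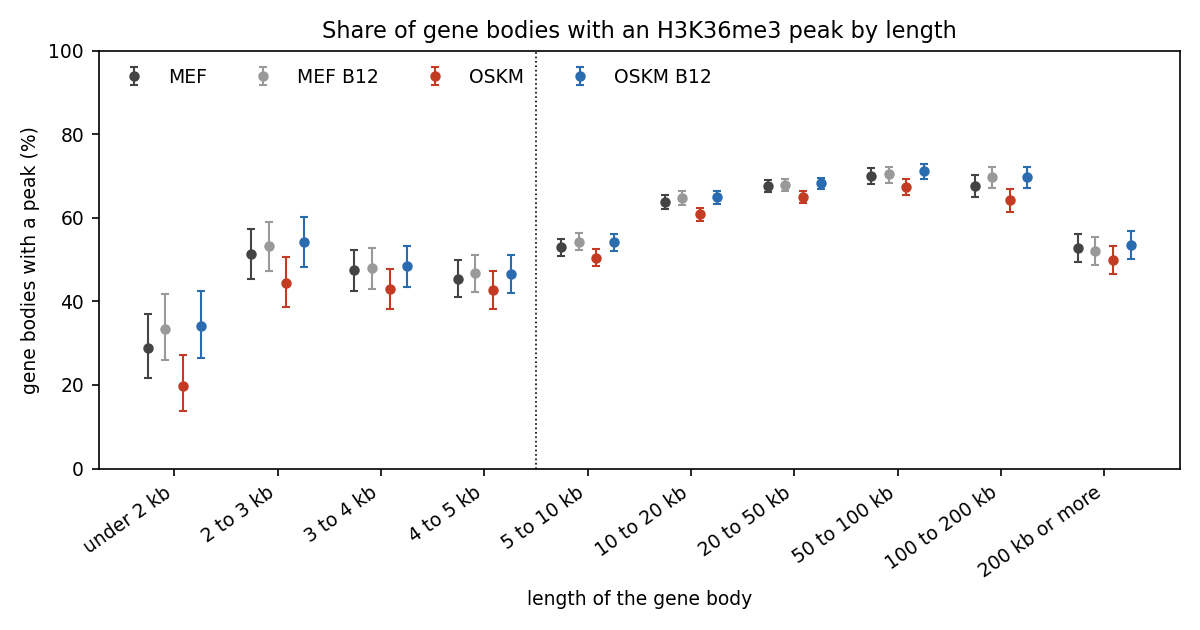
Share of gene bodies with at least 1 base in an H3K36me3 peak (vertical axis, percent) by length class (horizontal axis), 1 point per library with its 95% Wilson interval, and a dotted line at 5 kb. The share is highest at 50 to 100 kb (70.1% in MEF) and lower in the longest genes (52.8%), and the lowest class, under 2 kb, lies between 19.7% in OSKM and 34.1% in OSKM B12.

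Among the short genes themselves the lowest share belonged to the 132 bodies under 2 kb, with 28.8% in MEF (21.8 to 37.0), 19.7% in OSKM, 33.3% in MEF B12 and 34.1% in OSKM B12. The 265 bodies of 2 to 3 kb had the highest share in each library (51.3% in MEF, 44.5% in OSKM), and the MEF shares of those of 3 to 4 kb (47.4%) and 4 to 5 kb (45.4%) had intervals that overlap it. The number of exons separated the members further: 38.7% of the 419 genes with 4 exons had a MEF peak, and 66.1% of the 236 genes with 8 or more. At the limit of the rule, 57.6% of the 33 members within 100 bases under 5000 had a MEF peak. Of the 47 genes within 100 bases over it the share was 40.4%. In OSKM the shares were 51.5% and 42.6%. In neither library was the share lower just under 5 kb, but so few genes cannot settle whether there is a step.

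Once marked, short genes were covered a little less than genes of 5 to 20 kb and more than the longest genes. Over all 1273 members the mean share of the body in peaks was 22.3% (MEF), 23.2% (MEF B12), 16.2% (OSKM) and 24.1% (OSKM B12), against 28.2%, 29.9%, 19.3% and 30.0% for genes of 5 kb or more. Among genes with a peak the covered share in MEF was 48.9% for short genes, 53.8% for those of 5 to 10 kb, 55.1% for those of 10 to 20 kb and 34.6% for those of 50 to 100 kb. In OSKM it was 39.9%, 43.0%, 42.2% and 21.0%, and over all genes of 5 kb or more it was 44.1% in MEF and 31.5% in OSKM. A single peak was found on 87.9% of the short genes with a MEF peak. Of the 619 MEF peaks that touch a short gene, 58.3% had a −log10 q-value of 5 or more, compared with 49.6% of those on genes of 5 to 10 kb and 15.4% of all MEF peaks. In OSKM the shares were 17.4% of 615, 12.98% and 3.37%. The median MEF peak on a short gene was 3086 bases long with a fold enrichment over input of 3.68, and the median OSKM peak was 1668 bases long with a fold enrichment of 2.97. The height of the mark was taken as the scaled pileup, which is the mean number of overlapping fragments in a peak per 1000000 tags. Over covered bases it was 0.676 (MEF), 0.775 (MEF B12), 0.520 (OSKM) and 0.823 (OSKM B12) for short genes. It was close to that of genes of 5 to 10 kb (0.671, 0.762, 0.528 and 0.810), which were higher in OSKM. Outside OSKM the short-gene values include Gm10800 and Gm10801, members with outlying pileup described below. Small differences from the genes of 5 to 10 kb are therefore not read as a result. The short-gene values were above the 0.598, 0.663, 0.494 and 0.684 of all genes of 5 kb or more.

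The mark began well inside the gene. Among short genes with a MEF peak that starts inside the body, the first peak started a median of 1597 bases after the transcript start. The distance was 1859 bases in OSKM, 1593.5 in MEF B12 and 1512.5 in OSKM B12, and in genes of 5 to 10 kb it was 2418.5 in MEF and 2841 in OSKM. In MEF 6.59% of the first 250 bases of short genes with a peak lay in peaks, 20.9% of those between 1000 and 1250 bases, 50.04% between 1500 and 1750, 71.3% between 2000 and 2250 and 84.7% between 3000 and 3250. In OSKM the same stretches were covered over 6.41%, 13.8%, 32.3%, 56.2% and 71.3%. At an equal distance the longer genes were covered less: between 2000 and 2250 bases the MEF share was 39.5% in genes of 5 to 10 kb and 20.2% in those of 10 to 20 kb. In bases the mark thus lay nearer to the start in the shorter genes. A peak inside a shorter body cannot start as far away, so part of this order is set by the length classes.

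**Figure D2:**
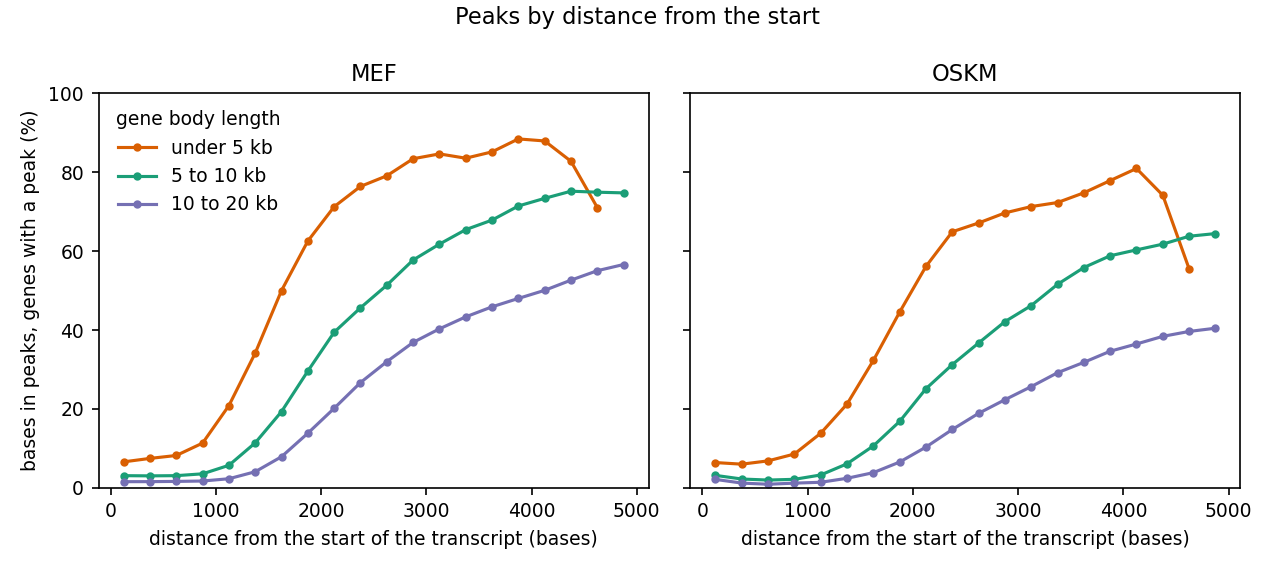
Share of bases in peaks (vertical axis, percent) by distance from the transcript start (horizontal axis, in steps of 250 bases) for genes with a peak, in MEF (left) and OSKM (right), 1 line per length class. The short genes reach 71.3% at 2000 to 2250 bases in MEF and 56.2% in OSKM, above both longer classes. The last point of the short genes, at 4500 to 4750 bases, rests on 46 genes with a MEF peak.

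When the body was divided into 5 equal parts from start to end, the mean covered share of the 1273 members in MEF rose from 3.2% in the first part through 8.6%, 24.4% and 35.6% to 39.5% in the last. In OSKM the parts were covered over 2.6%, 5.2%, 16.2%, 26.9% and 30.4%. The coverage did not stop at the annotated end. In MEF 35.6% of the first 1000 bases after the end lay in peaks, 27.4% of the next and 22.7% of the third, and in OSKM 27.9% of the first 1000 bases. A peak ran past the end in 50.9% of short genes with a MEF peak, by a median of 1633 bases, and past the start in 6.2%. In OSKM it ran past the end in 52.6%, by a median of 994 bases. Exons were covered over 29.0% of their bases in MEF and introns over 19.1%. Within the exons the first was covered over 3.67% and the last over 43.9%. The scaled pileup over covered bases was 0.675 in exons and 0.676 in introns, but a broad peak carries a single mean pileup, which cannot resolve an exon of about 142 bases (the median exon length of the members).

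**Figure D3:**
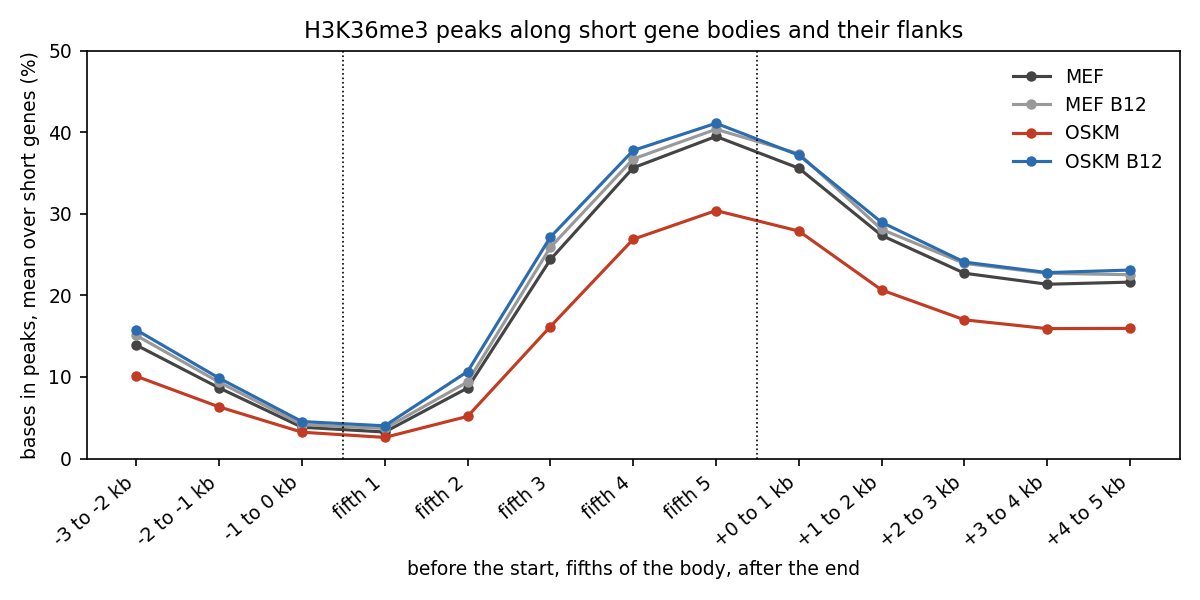
Mean share of bases in peaks over the 1273 short genes (vertical axis, percent) along 3 stretches of 1 kb before the start, 5 equal parts of the body and 5 stretches of 1 kb after the end (horizontal axis), 1 line per library, with dotted lines at the start and the end. The lines rise through the body to the last part (39.5% in MEF, 30.4% in OSKM) and decline after the end, with OSKM lowest along the body.

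Genes whose first part was covered were few. In MEF 42 of the 580 short genes with a peak (7.24%) had at least 50% of the first of the 5 parts in a peak. Of these, 17 overlapped another protein-coding gene, 16 had one within 1 kb without overlap, and 4 had none within 5 kb. Only 7 of the 42 (16.7%) had 10 or more CpG in the 250 bases upstream, against 72.3% of the 519 short genes with a peak and no covered base in the first part. Neighbours lie close to many short genes, and 12.6% of the members' bases in MEF peaks were also inside another protein-coding gene. Whether such a peak belongs to the short gene or to its neighbour was not tested.

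A peak was present in all 4 libraries on 503 members (39.5%) and in none on 633 (49.7%). In genes of 5 kb or more these shares were 59.1% and 31.7%. The groups of 503 and 633 members differed in their promoters and their surroundings. A median of 14 CpG stood in the 250 upstream bases of the first group, of which 69.4% had 10 or more, and a median of 3 in the second, of which 15.8% had 10 or more. Another protein-coding gene overlapped 35.6% of the first group and 11.1% of the second, and none lay within 5 kb of 12.7% and 56.4%. In MEF 76.2% of the 516 members with 10 or more CpG had a peak (72.3 to 79.6) and 24.7% of the 757 with fewer (21.8 to 27.9). By surroundings, a MEF peak was present in 70.7% of the 276 members that overlap another protein-coding gene, 54.9% of the 546 that have one within 5 kb, and 18.8% of the 451 with none within 5 kb.

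Each of these features went with the mark when the other was held. Among the members with no coding gene within 5 kb, 61 of 96 with 10 or more CpG had a MEF peak (63.5%, 53.6 to 72.5) and 24 of 355 with fewer (6.76%, 4.58 to 9.86). Among members that overlap another gene the shares were 83.4% of 145 and 56.5% of 131. In OSKM the isolated members gave 52.1% and 5.35%. The same order held in the 5 to 10 kb genes, where the isolated MEF shares were 72.1% and 9.17%. In all genes of 5 kb or more the isolated genes with fewer than 10 CpG had a MEF peak in 26.9% of cases. With only isolated genes on both sides the share of short genes with a peak divided by that of genes of 5 kb or more was 0.366 in MEF and 0.312 in OSKM.

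**Figure D4:**
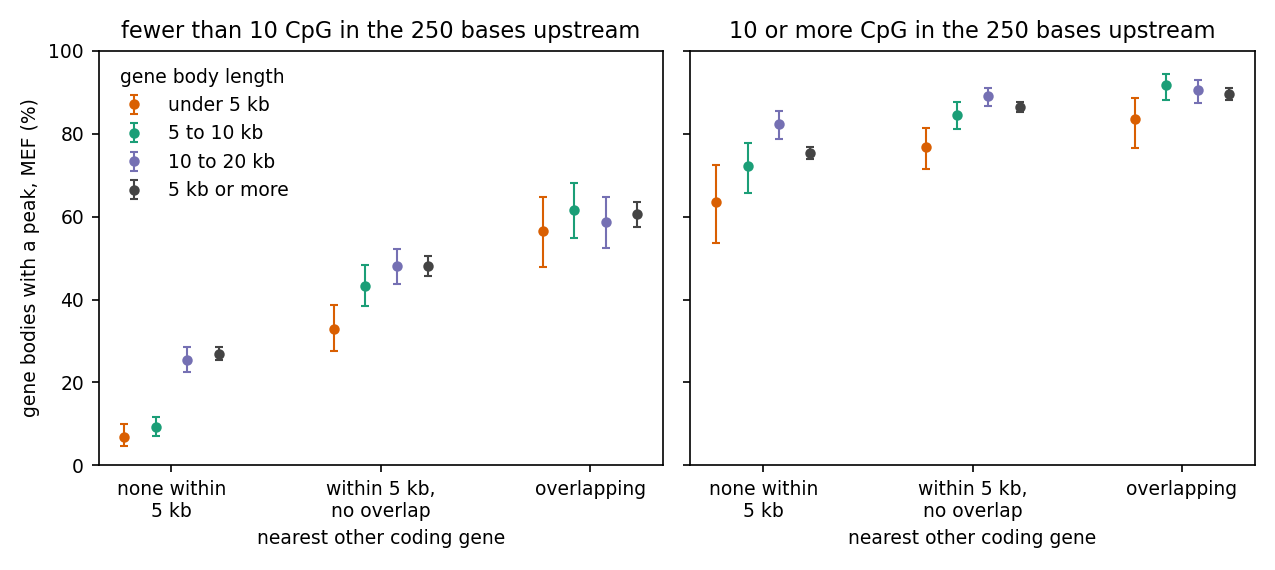
Share of gene bodies with a MEF peak (vertical axis, percent, with 95% Wilson intervals) by the nearest other protein-coding gene (horizontal axis), for genes with fewer than 10 CpG (left) and 10 or more (right) in the 250 upstream bases, 1 colour per length class. Isolated short genes lie at 6.76% on the left and 63.5% on the right, and overlapping ones at 56.5% and 83.4%.

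Short genes with no peak of their own rarely had one close by, but more often after the end than longer genes without a peak. In MEF 32 of the 693 members without a peak (4.62%) had one within 1 kb after the end. The share was 2.28% in such genes of 5 to 10 kb and 1.93% in those of 10 to 20 kb. In OSKM the 3 shares were 6.37%, 3.07% and 2.32%. Within 1 kb before the start 9 of the 693 had a MEF peak (1.30%), beside 1.14% and 1.17% in the longer classes. Among the bodies under 2 kb the share after the end was higher, with 12 of 94 (12.8%) in MEF and 17 of 106 (16.04%) in OSKM. Among the 366 isolated members without a MEF peak it was 1.

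In the doxycycline-treated cells the mark was lower over short genes, and with vitamin B12 added it was not. Density, the scaled pileup summed over the bases in peaks and divided by body length, had a mean over the 1273 members of 0.156 (MEF), 0.188 (MEF B12), 0.0846 (OSKM) and 0.207 (OSKM B12). OSKM divided by MEF was 0.544 in density (0.537 to 0.550) and 0.729 in covered share (0.654 to 0.813). OSKM B12 divided by OSKM was 2.44 in density (2.42 to 2.47) and 1.49 in covered share (1.33 to 1.66). MEF B12 divided by MEF was 1.21 in density and 1.04 in covered share, whose interval (0.935 to 1.16) includes no difference. The intervals of covered share were formed from numbers of peaks and those of density from estimated numbers of tags. Their widths therefore cannot be compared. The first 2 comparisons share the OSKM library. Genes of 5 kb or more gave ratios close to these, with 0.549, 2.27 and 1.19 in density and 0.683, 1.56 and 1.06 in covered share. With only peaks of a −log10 q-value of 5 or more, OSKM divided by MEF was 0.271 in covered share and 0.229 in density, and OSKM B12 divided by OSKM was 4.49 and 6.30. That limit kept 3.37% of all OSKM peaks, 15.4% of MEF and 19.5% of OSKM B12, so the wider gap follows from the filter and adds no separate evidence.

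Counted gene by gene, density was lower in OSKM than in MEF for 558 members, higher for 34 and equal for 681, none of which had a peak in either library. Of the 14270 genes of 5 kb or more it was lower in 8985, higher in 385 and equal in 4900. A fall of 1.5-fold or more, after 0.05 was added to each density, was found in 341 members (26.8%), where 38.1% of all gene bodies passed. The corresponding rise was found in 15 members (1.18%), where 0.174% of all gene bodies passed, and these made up 15 of the 27 genes past it. The 15 held little mark: their OSKM density ranged from 0.0265 to 0.109, 11 of them had no MEF peak, and none had an OSKM peak with a −log10 q-value of 5 or more. In OSKM B12 against OSKM density was higher in 600 members and lower in 10, and the rise reached 1.5-fold in 529 (41.6%), beside 53.3% of all gene bodies. Of genes of 5 kb or more 9220 were higher and 246 lower. In MEF B12 against MEF density was higher in 481 members and lower in 137. Of genes of 5 kb or more 8453 were higher and 972 lower. A rise of 1.5-fold was found in 85 members (6.68%), beside 2.16% of all gene bodies, and a fall of that size in 26 (2.04%), beside 0.309%.

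Short genes also lacked an OSKM peak more often than genes of 5 to 10 kb. Of the 580 members with a MEF peak, 73 had none in OSKM (12.6%, 10.1 to 15.5), compared with 80 of 1187 genes of 5 to 10 kb (6.74%, 5.45 to 8.31). In the last 3632 bases of genes of 5 to 10 kb the share was 7.14% (5.80 to 8.77). In the last 3632 bases of all genes of 5 kb or more it was 12.9%, inside the interval of the short genes. The 73 held weak peaks in MEF, with a median density of 0.0889 and a median −log10 q-value of 2.95, against 0.342 and 7.18 for the 507 that had an OSKM peak as well. A peak was present in OSKM B12 on 56 of the 73, beside 469 of the 640 such genes of 5 kb or more. In the other direction 12 members (0.943%) had an OSKM peak and no MEF peak, beside 1.70% of genes of 5 kb or more. An OSKM B12 peak and no OSKM peak was found in 91 members (7.15%), beside 5.16% of genes of 5 kb or more.

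The differences were also present inside bases that every library called. In 491 members 685 kb lay in peaks in all 4 libraries, and the scaled pileup there was 0.715 (MEF), 0.821 (MEF B12), 0.529 (OSKM) and 0.879 (OSKM B12). OSKM was lower than MEF in 463 of the 491 (94.3%), MEF B12 was lower than MEF in 49 (9.98%), and OSKM B12 was lower than OSKM in 4 (0.815%). In genes of 5 kb or more with such bases the shares were 96.6%, 6.58% and 0.980%. The ratios, 0.740 for OSKM to MEF and 1.66 for OSKM B12 to OSKM, lay beside 0.754 and 1.57 in genes of 5 kb or more. Pileup was scaled by total tags and the libraries carried no spiked-in reference chromatin, so a difference in overall mark and a difference in enrichment of the libraries cannot be told apart.

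Ribosomal protein genes were the family with the most marked members by count among the lists examined, and also the list with the most members. Of the 56 short genes for cytosolic ribosomal proteins, 54 had a peak in the MEF library and 50 in the OSKM library, with 55 in MEF B12 and 53 in OSKM B12. For this and the later lists the background is all members, of which 45.6% had a MEF peak, 40.8% an OSKM peak and 49.7% none in any library. Of all gene bodies 62.5% had a MEF peak and 59.5% an OSKM peak. The mean density of the 56 was 0.419 (MEF), 0.493 (MEF B12), 0.232 (OSKM) and 0.508 (OSKM B12). It was lower in OSKM than in MEF for 54 and higher for none. Over all 1273 members it was lower for 558 and higher for 34, so the direction was not particular to this family. Rpl13a (large subunit; overlapping Gm45713) had densities of 0.773 (MEF), 0.880 (MEF B12), 0.434 (OSKM) and 0.865 (OSKM B12). Rpsa, the laminin receptor and small subunit protein, had 0.706, 0.843, 0.445 and 0.870 in the same order. At the low end, Rpl41 had 0.111 and 0.131 in the MEF libraries and 0 in both OSKM libraries, and Rpl36 had 0 throughout. The median density of all 1273 members was 0 in each library, and that of all gene bodies was 0.0621 in MEF and 0.0190 in OSKM. Ribosomal protein genes, Actb, Gapdh and tubulin genes have many near-identical processed copies in the genome, and reads that align in several places were restricted before the peaks were called, so their pileup is uncertain.

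The other housekeeping lists were smaller, and by share of members some were marked more widely and others less. All 15 mitochondrial ribosomal genes had a MEF peak and 14 an OSKM peak, with a mean density of 0.312 in MEF and 0.180 in OSKM, and Mrpl52 was the member with no OSKM peak (0.218 in MEF and 0.243 in OSKM B12). Of 13 genes of the respiratory chain and ATP synthase 12 had a peak in each library. Among them Cox7a1 had a density of 0.411 in MEF and 0.261 in OSKM, while Atp5k had 0 throughout. All 6 proteasome genes had a peak in each library, with Psmb4 highest (0.390 in MEF, 0.274 in OSKM) and Psmb10, an immunoproteasome subunit, lowest (0.137 and 0.0640). The 3 glycolytic genes, Aldoa, Gapdh and Tpi1, were marked in each library. Of 11 genes for splicing and RNA processing 9 had a MEF peak and 8 an OSKM peak. Polr2e, a shared RNA polymerase subunit, had 0.545 in MEF and 0.378 in OSKM, Polr2k lost its peak (0.204 in MEF, 0 in OSKM, 0.0104 in OSKM B12), and Lsm2 was the 1 member of the list with a MEF peak that was not lower in OSKM (0.109 in MEF, 0.114 in OSKM). Of 8 translation factors 7 had a peak in each library. Eef1a1, the factor that delivers aminoacyl-tRNA to the ribosome, had 0.557 (MEF), 0.689 (MEF B12), 0.148 (OSKM) and 0.579 (OSKM B12), and Eif4e1b, an oocyte cap-binding factor, had 0 throughout.

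Among the cytoskeletal members most of the unmarked genes were muscle isoforms. Of the 15 members for actin, tubulin and their partners 11 had a MEF peak. Actb, Tubb5, Cfl1 and Myl6 were highest, and the 4 members without a peak in any library were Acta1 (skeletal muscle actin), Mylpf (fast muscle myosin light chain), Myl7 (atrial myosin light chain) and Myl6b. Of the 5 heat shock and co-chaperone genes Hspa8, Hspe1 and Dnajc9 had a peak in each library, and Dnajc4 and Dnajc5g had none. Of the 4 members of the fibroblast matrix and surface list Lgals1 and Mfap4 had a peak in each library, and Igfbp1 and S100a14 had none.

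Families of other tissues held no peak. None of 14 keratin, 19 kallikrein, 34 lipocalin, odorant-binding and major urinary protein, and 14 chemokine and interleukin genes had a peak in any library, and neither did the 3 pluripotency genes Pou5f1, Lefty1 and Dppa3. Pou5f1 encodes Oct4, a factor of the cassette, whose copy carries exon sequence of the gene, and its own locus (chr17:35506018-35510772, plus strand) had no base in a peak in either doxycycline-treated library. The peaks at this locus give no check of the induction. Cldn7, an epithelial tight-junction gene, was covered over 15.7% of the body in OSKM, 0.763% in MEF, 0.0402% in MEF B12 and 0% in OSKM B12, by an OSKM peak of a low density (0.0649). Of 12 lymphocyte and blood genes Cd68, Ly6e and Ly6a had a MEF peak. Cd68 had a density of 0.782 (MEF), 0.907 (MEF B12), 0.413 (OSKM) and 0.926 (OSKM B12), and its start lay 782 bases from Eif4a1, a translation factor gene. No blood marker that defines the cell type (Ptprc, Cd79a, Gata1, Lck) had a peak.

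In most well-known short genes the OSKM library was the lowest. Actb (β-actin; ENSMUSG00000029580, chr5:142903115-142906754) was covered over 94.3% (MEF), 83.3% (MEF B12), 81.4% (OSKM) and 90.0% (OSKM B12). Its density was 0.780, 0.810, 0.457 and 0.809, so the OSKM library stood apart from 3 close values. Gapdh (chr6:125161854-125165773) had densities of 0.307, 0.431, 0.171 and 0.446. Hspa8, a constitutively expressed chaperone, had 0.445 (MEF), 0.784 (MEF B12), 0.266 (OSKM) and 0.595 (OSKM B12), and Lgals1, a galectin of fibroblasts, had 0.507, 0.522, 0.314 and 0.605. Both had higher values in each B12 library than in its counterpart. Cox5b (chr1:36691484-36693681), whose 22 upstream CpG were shown, had densities of 0.282, 0.261, 0.0175 and 0.2002 and a covered share of 3.73% in OSKM against 31.9% to 50.6% in the others. Tuba1b, a tubulin that overlaps Gm49450, was lowest in another library, with 0.102 (MEF), 0.0593 (MEF B12), 0.0677 (OSKM) and 0.117 (OSKM B12). Krt18 had 0 throughout despite the 12 CpG upstream.

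**Figure D5:**
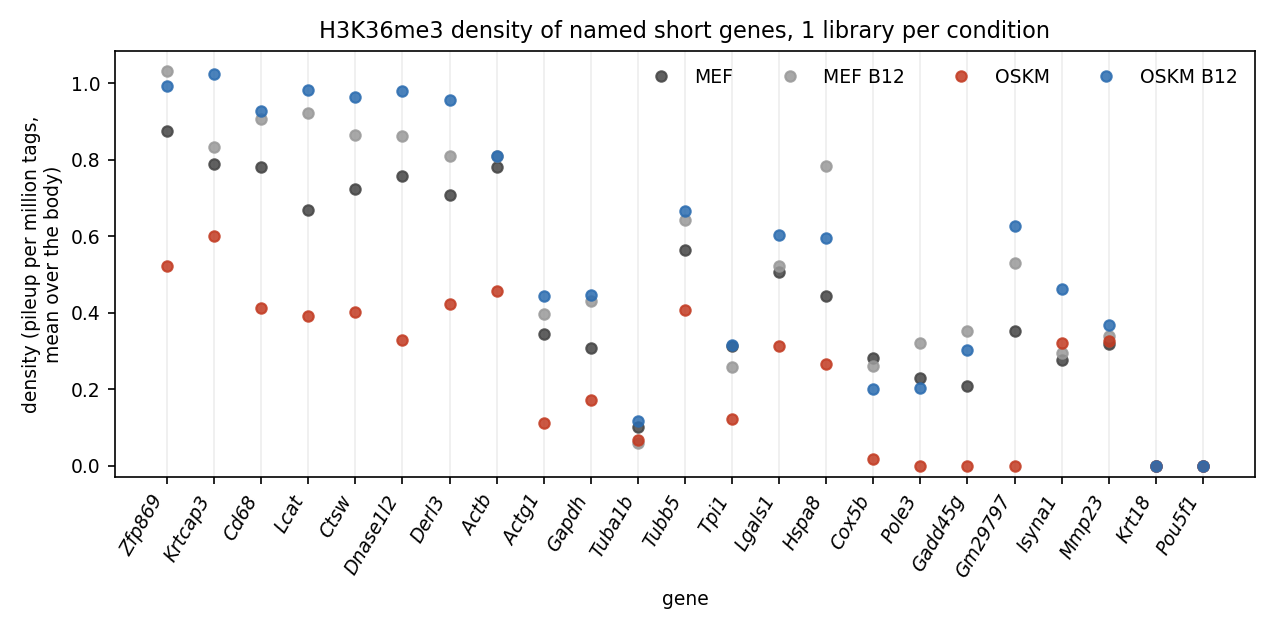
Density (vertical axis, scaled pileup averaged over the body) of named short genes (horizontal axis), 1 point per library. The OSKM point is the lowest in most genes (Actb 0.457 in OSKM against 0.780 in MEF), lies at 0 in Pole3, Gadd45g and Gm29797, and lies above MEF in Isyna1 and Mmp23.

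Most of the highest densities belonged to members close to another coding gene, as did most marked members. Of the 385 members with a MEF peak and no overlap, 300 had a coding gene within 5 kb. The closeness of the highest genes is therefore not read as a result. Leaving aside Gm10800 and Gm10801, the 8 highest among members that overlap no other protein-coding gene included Zfp869, Krtcap3, Cd68, Lcat, Ctsw, Dnase1l2 and Derl3. Zfp869, a zinc finger gene, had 0.877 (MEF), 1.03 (MEF B12), 0.523 (OSKM) and 0.994 (OSKM B12), with its nearest coding genes 30.9 and 39.3 kb away. Krtcap3, a keratinocyte-associated gene that lies 139 bases from Nrbp1 and 79 bases from Ift172, was fully covered in each library, with 0.789, 0.832, 0.602 and 1.02. Lcat, which esterifies plasma cholesterol, had 0.668, 0.922, 0.392 and 0.984 and lay 207 bases from Slc12a4. Ctsw, a lymphocyte protease, had 0.723, 0.864, 0.402 and 0.965 and lay 188 bases from Fibp. Dnase1l2 lay between E4f1 and Eci1 at 672 and 738 bases, and Derl3 lay 827 bases from Smarcb1. Apart from Zfp869, each of the genes named here had another coding gene within 1 kb, and the part of that gene in the peak was not tested. Counting overlapping genes, 24 members were fully covered in at least 1 library and 4 in all of them: Krtcap3, Igflr1 (overlapping Gm49396), Bricd5 (Mlst8) and Dnase1 (Trap1).

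Gm10800 and Gm10801 stood apart from all other members. Gm10800 (chr2:98666547-98667301, 755 bases) had densities of 9.005 (MEF), 12.04 (MEF B12), 0 (OSKM) and 11.97 (OSKM B12), and Gm10801, 2463 bases away, had 0, 2.75, 0 and 3.35. The next highest mean density of a member was 1.01 (Igflr1). Their peaks had the highest scaled pileup of all peaks on chromosomes 1 to 19 in MEF (11.9), MEF B12 (12.4) and OSKM B12 (12.5), beside medians of 0.442, 0.462 and 0.468. The fold enrichment over input of the same peaks was at most 1.15, 1.24 and 1.23, so the input was nearly as high there. Without the pair the mean density of the members was 0.149, 0.176, 0.0847 and 0.195, OSKM divided by MEF was 0.569 and OSKM B12 divided by OSKM was 2.30. In the 132 bodies under 2 kb the pair decided the value: OSKM divided by MEF was 0.280 with it and 0.501 without it, and OSKM B12 divided by OSKM was 5.47 and 2.79.

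Gene by gene changes from MEF to OSKM were ranked among the 196 members that overlap no other protein-coding gene and were covered over at least 50% of the body in MEF or OSKM. Of all members 22.9% reached that coverage in MEF and 13.1% in OSKM, so the choice favours genes high in MEF, and the share of falls among them is not read as a result. Besides Gm10800, the largest falls included Gm29797, Pole3 and Gadd45g, each of which had no OSKM peak. Pole3, a histone-fold subunit of DNA polymerase ε, was covered over 53.2% (MEF), 59.8% (MEF B12), 0% (OSKM) and 49.5% (OSKM B12), with densities of 0.230, 0.321, 0 and 0.203. Gadd45g, a stress and DNA damage response gene, was covered over 51.6%, 59.3%, 0% and 47.3%, with densities of 0.209, 0.353, 0 and 0.303. Gm29797 had densities of 0.351, 0.531, 0 and 0.628. In Gadd45g and Gm29797 the OSKM B12 density was above that of MEF, and in Pole3 it was below. At the other end of the order, with a higher density in OSKM, were Isyna1, which starts the synthesis of inositol, with 0.277 (MEF), 0.296 (MEF B12), 0.321 (OSKM) and 0.461 (OSKM B12), and Mmp23, a membrane-bound metalloproteinase, with 0.318, 0.340, 0.326 and 0.368. Their log2 changes were 0.18 and 0.03, and the next in order, Emp3, Mrgbp and Mrpl11, were at -0.02, -0.04 and -0.05.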

How the data were processed

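Each H3K36me3 library was compared with its own input. The authors used Bowtie 0.12.9 and mm10 for alignment (reads restricted to 1 alignment), merged the runs, removed duplicates and called broad peaks with MACS2 2.2.6, at q-value limits of 0.05 and 0.1 per the file headers. The deposited lists give each broad peak a pileup (signal, the mean coverage by extended fragments), a fold enrichment (a ratio to the input) and −log10 p-values and q-values. The extraction protocol spells the antibody's target H3K3me3 and the series title H3K36me3, which was taken as correct.

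Gene bodies, exons and neighbours came from GENCODE M21 on mm10. Upstream sequences and CpG numbers came from the RefSeq genome sequence (GRCm38.p6), cut before the GENCODE transcript starts. The members, gene lists and tests were chosen with earlier results of these data known. Covered share is the percentage of a body in peaks. Pileup was divided by tags after filtering (29046913 to 33399267 in the H3K36me3 libraries) and multiplied by 1000000, assumed even along a peak, and 0 outside peaks. Changes were called at 1.5-fold after a pseudocount of 0.05. Shares carry Wilson intervals, which like all intervals here cover counting error only. Named genes are up to 4 with the highest and lowest mean density of each list, 10 with the highest mean density and no overlap, the 5 largest changes each way from MEF to OSKM among non-overlapping members covered over at least 50%, fully covered members and 11 well-known genes; 2 genes named by the rule are not reported here. Python 3.11.15 and numpy 2.4.6 were used, and interval arithmetic was tested on simulated peaks. There were 16 alternatives, of which 2 (transcript chosen by span, and without Gm10800 and Gm10801) were added after seeing the data.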

Additional observations from a re-analysis of the deposited data

How the results depend on the processing

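No paired analysis was possible because there were no replicates, only 1 library per condition. Of 119 values recomputed under 16 alternatives, 64 stayed within the counting interval, 51 moved beyond it and 4 reversed. Ratios of the share with a peak, short to 5 kb or more, are in the order MEF, MEF B12, OSKM, OSKM B12. With first windows of 3632 bases in the longer genes they reversed to 1.85, 1.77, 2.204 and 1.74, and with last windows they were 0.790, 0.801, 0.797 and 0.809. With at least 10% of the body in peaks they were 0.836, 0.830, 0.853 and 0.853, and with at least 50% they were 0.787, 0.778, 0.824 and 0.809. Without overlapping genes they were 0.640, 0.663, 0.584 and 0.669, with isolated genes 0.366, 0.362, 0.312 and 0.367, and at −log10 q of 5 or more 0.736 in OSKM. Condition ratios are in the order OSKM to MEF, OSKM B12 to OSKM, MEF B12 to MEF. Covered share at −log10 q of 5 or more gave 0.271 and 4.49, and isolated genes gave 0.646 for the first. Density gave 0.229, 6.30 and 1.27 at −log10 q of 5 or more, and 0.569, 2.30 and 1.19 both at fold enrichment of 2 or more and without Gm10800 and Gm10801. With equal numbers of peaks it gave 0.570 and, for the third ratio, 1.26. A limit 1000 bases lower or higher gave 0.519, 2.64 and 1.23, and 0.562 and 2.35. Without overlaps it gave 0.509 and 2.61, in isolated genes 0.506, 2.35 and 1.15, with unscaled pileup 0.557, 2.17 and 1.08, and with fold enrichment 0.579, 2.11 and 1.16. The transcript chosen by span moved none. Every condition ratio kept its direction, and fewer OSKM peaks than others pass the −log10 q limit. The cause of the other shifts was not tested. With peaks alone, a body outside peaks could hold a mark too weak to call, and 1 library per condition limits each comparison to these cultures.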
